A study of Mus musculus with 8 samples.

Results

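The Ankrd34 family of the mouse, which comprises Ankrd34a, Ankrd34b and Ankrd34c, was examined in naive corneas of BALB/c and C57BL/6N mice. The 3 genes were taken by name out of 54532 genes in the expression table. The family was chosen by the rlog values of Ankrd34c in these corneas, which had already been seen to be far lower in BALB/c, so its strain difference is given below as a description and without a test. Ankrd34a, Ankrd34b and the genes around the 3 loci were taken by name or by position.

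Total RNA of 4 BALB/c and 4 C57BL/6N corneas was sequenced from strand-specific libraries to compare the parental strains of a cross in which corneal lymphatic vessels had been mapped. All mice used for sequencing were male, the corneas were untreated, no engineered allele is named for either strain, and neither an age for the sequenced mice nor whether each cornea came from a separate mouse is given in the sources used here. P-values therefore measure only the spread between these corneas. The study's methods name the substrain BALB/cN.

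Ankyrin repeats are short helical units that stack into a surface for binding other proteins, and they occur in channels, scaffolds, transcriptional regulators and signalling proteins. The Ankrd34 proteins are named for this domain, and little is established about what they do. The cornea is a transparent tissue made of a stratified epithelium, a collagenous stroma with keratocytes, and an endothelium on the inner face. BALB/c is an albino and C57BL/6N a black inbred strain, and their genomes differ at very many positions.

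Each member has its whole coding sequence in 1 exon. Ankrd34c (ENSMUSG00000047606) is on chromosome 9, minus strand, at 89725245 to 89738475 in GRCm38. It has 2 annotated transcripts over 5487 bases of exon, and its coding part (89728685 to 89730286) encodes 534 residues. Ankrd34a (ENSMUSG00000049097) lies on the plus strand of chromosome 3 from 96596636 to 96599775 and encodes 495 residues. Ankrd34b (ENSMUSG00000045034) lies on the plus strand of chromosome 13 from 92425896 to 92441658 and encodes 508 residues. The antisense gene C030017D09Rik overlaps the start of Ankrd34b.

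The windows around the 3 start sites are shown as background to the RNA level of each gene. Transcription itself was not measured. They run 5′ to 3′ from 250 bases before the start to 50 bases after it (RefSeq, GRCm38.p6) and belong to the reference genome, which is that of a C57BL/6 mouse. The sequence of BALB/c was not analysed here. Capitals mark matches, on either strand, to 3 short motifs that are spelled out and counted after the sequences. The windows are chr9:89738426-89738725 on the minus strand for Ankrd34c, chr3:96596386-96596685 on the plus strand for Ankrd34a and chr13:92425719-92426018 on the plus strand for Ankrd34b.
Ankrd34c: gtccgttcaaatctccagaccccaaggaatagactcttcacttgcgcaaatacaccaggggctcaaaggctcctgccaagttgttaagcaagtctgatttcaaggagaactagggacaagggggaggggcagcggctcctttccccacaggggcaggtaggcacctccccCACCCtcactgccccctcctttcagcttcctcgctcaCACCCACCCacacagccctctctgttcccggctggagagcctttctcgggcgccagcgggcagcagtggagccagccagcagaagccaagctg
Ankrd34a: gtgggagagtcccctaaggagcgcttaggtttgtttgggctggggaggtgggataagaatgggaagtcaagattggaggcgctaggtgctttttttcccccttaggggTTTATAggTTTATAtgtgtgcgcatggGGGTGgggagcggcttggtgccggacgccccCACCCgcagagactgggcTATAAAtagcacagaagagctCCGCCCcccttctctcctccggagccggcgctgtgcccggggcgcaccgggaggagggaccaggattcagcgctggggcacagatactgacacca
Ankrd34b: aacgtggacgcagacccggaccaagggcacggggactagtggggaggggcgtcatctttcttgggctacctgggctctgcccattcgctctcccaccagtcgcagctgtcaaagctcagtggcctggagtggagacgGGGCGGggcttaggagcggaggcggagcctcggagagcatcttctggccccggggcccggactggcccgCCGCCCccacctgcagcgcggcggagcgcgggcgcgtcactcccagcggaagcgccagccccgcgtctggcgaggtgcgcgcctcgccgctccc

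The 3 windows differed in base composition. The Ankrd34c window was 60.3% G and C with 8 CpG dinucleotides, close to the median of 7 over 32851 promoters, although the median G and C content was only 52.7%. The window of Ankrd34a held 60.7% G and C with 15 CpG dinucleotides, and that of Ankrd34b 72.3% with 32, more than 90.5% of all promoters. On both strands together, TATAAA, the letters of a TATA box, matched 3 times in Ankrd34a, in the other windows not at all, and in 13.6% of all promoters. GGGCGG, the core that Sp1-type factors prefer, matched 2 times in Ankrd34b, 1 time in Ankrd34a and 0 times in Ankrd34c (35.7% of all promoters). CACCC, bound by Krüppel-like factors, matched 3 times in Ankrd34c at positions -80, -43 and -39, 2 times in Ankrd34a and 0 times in Ankrd34b (57.5% of all promoters). No match says only that these letters are not in this window, and a match is no evidence of binding.

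The deposited values are regularized log (rlog) values, which are on a log2 scale, normalized for library size and shrunk towards the mean of a gene where reads are few. Numbers of reads were recovered from them by inverting the transformation. For 9768 genes that were not used to set its constants and had a mean of 1 to 1000 reads, the recovered values came within 0.1 of a whole read in 92.7% of cases, and in 19.9% once random fractions had been put on them. The share was 55.0% at means of 1000 to 5000 reads and 21.7% above 5000, where random fractions gave 19.7%. Reads of such genes, and sums that hold them, are therefore not resolved to whole reads. The recovered reads added up to 36.7 to 41.2 M per cornea in BALB/c and 29.7 to 37.0 M in C57BL/6N. Epithelial markers (Krt12, Krt5, Krt14, Aldh3a1 and Pax6) summed to between 1584941 and 1903174 normalized reads in every cornea of both strains. Some corneas stood apart in the tissue they held. Stromal markers (Kera, Lum, Dcn, Col1a1) were low in BALB/c replicate 2 and C57BL/6N replicates 3 and 4, with a mean rlog of 11.34 to 12.45 against 14.83 to 15.26 in the other corneas. Lens markers were high in BALB/c replicates 1 and 4, with a mean rlog of 7.52 and 6.81 against 4.74 to 5.42, and pigment cell markers with 10.42 and 11.34 against 6.22 to 8.66. For Ankrd34c, Ankrd34a, Minar1, Adamts7, Ankrd6 and Ankrd37, values without these corneas are also given. The conjunctiva was the only one of 11 marker lists with a called gene, and 4 of its 5 markers were called (Krt4, Krt13, Krt19 and Muc4), all lower in BALB/c. In whole corneas, fewer cells of a type and less RNA per cell cannot be told apart.

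Ankrd34c was well expressed in C57BL/6N corneas and close to absent in BALB/c corneas. In BALB/c, 33, 13, 20 and 14 reads were recovered from replicates 1 to 4, 80 in all. In C57BL/6N, 1808, 1584, 1537 and 1754 reads were recovered, 6683 in all. No cornea of one strain came near any cornea of the other. The largest distance of these values from a whole number was 0.28 reads. All 4 BALB/c corneas were above the 3 reads that a count of 0 would allow, so that reads were few but detected.

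Normalized for library size, Ankrd34c reached 18 ± 7.53 reads (SD, n = 4) in BALB/c and 1806 ± 155 reads (SD, n = 4) in C57BL/6N. The mean was thus 100.3-fold higher in C57BL/6N. The lowest C57BL/6N cornea had 56.0 times the normalized reads of the highest BALB/c cornea, and leaving out any 1 cornea gave folds between 89.3 and 123.8. On the rlog scale the values were 6.22, 5.82, 6.03 and 5.91 in BALB/c and 10.19, 10.02, 10.25 and 10.20 in C57BL/6N. The rlog difference, BALB/c minus C57BL/6N, was -4.17. It is smaller than the log2 ratio of normalized reads, -6.65, because rlog values are shrunk.

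**Figure D1:**
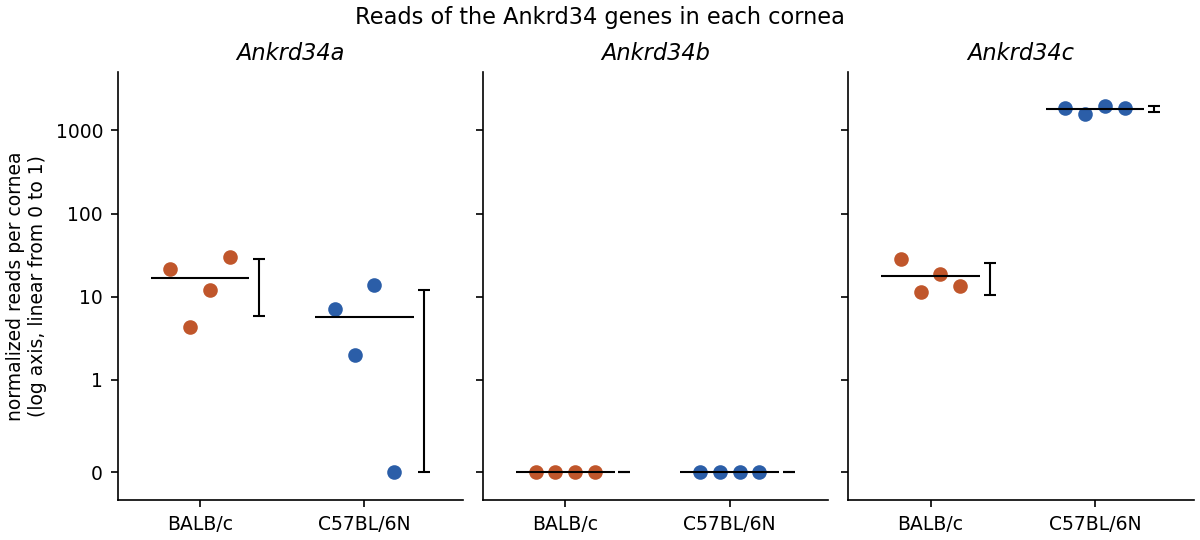
Normalized reads of Ankrd34a, Ankrd34b and Ankrd34c in each of the 4 BALB/c and 4 C57BL/6N corneas, on a log axis that is linear from 0 to 1. Points are corneas, lines are means and bars are ± SD (cut at 0), and the strains lie 100.3-fold apart for Ankrd34c but overlap for Ankrd34a, while Ankrd34b is at 0 throughout.

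Ankrd34c was not lower in the stroma-poor C57BL/6N corneas than in the others. In C57BL/6N, Ankrd34c had 1943 and 1857 normalized reads in the stroma-poor replicates 3 and 4 against 1842 and 1583 in replicates 1 and 2. In BALB/c, the corneas high in lens and pigment markers had 28.3 (replicate 1) and 13.6 (replicate 4) normalized reads against 11.4 and 18.8 in replicates 2 and 3. The conjunctival markers were lower in BALB/c too, with summed levels of 523813 to 773051 normalized reads against 886587 to 1119118 in C57BL/6N and none of the markers at 0 in all corneas. Their part in the difference of Ankrd34c was not tested. The rlog difference of Ankrd34c was -4.24 without BALB/c replicates 1 and 4 and -4.05 without the 3 stroma-poor corneas. The coefficient of variation between corneas was 8.6% in C57BL/6N and 41.8% in BALB/c, where counting error alone gives 2.45% and 22.4%. The spread was thus above that of counting in both strains. The few BALB/c reads do not rank the 4 BALB/c corneas firmly, since replicates 2 and 4 differed by 1 read.

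Among all genes, the difference of Ankrd34c ranked 4 from the lowest of 25402 genes tested, and 10 genes (Ankrd34c included) had a difference at least as large in either direction. Of 11730 protein-coding genes with a mean of at least 100 normalized reads in 1 strain, only Trim12a, Trim5, Gfap, Adh6a and Rpl29 had a lower log2 ratio of normalized reads. Levels of different genes were compared per length, as reads per kilobase of exon and per 1 M recovered reads (RPKM). Ankrd34c had 8.81 ± 0.719 RPKM (SD, n = 4) in C57BL/6N, rank 4161 of 21995 protein-coding genes. In BALB/c it had 0.0926 ± 0.0407 RPKM (SD, n = 4), rank 14117. It was thus above 81.1% of protein-coding genes in C57BL/6N and above 35.8% of them in BALB/c.

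Ankrd34a was close to the limit of detection in both strains. In BALB/c, 25, 5, 13 and 31 reads were recovered, and in C57BL/6N 7, 2, 11 and 0. The strains overlapped, and 1 C57BL/6N cornea had no read, which allows up to 3. Ankrd34a had 17 ± 11.1 normalized reads (SD, n = 4) in BALB/c and 5.76 ± 6.21 (SD, n = 4) in C57BL/6N, a ratio of 2.95. Leaving out any 1 cornea moved this ratio to between 2.2 and 5.59, and C57BL/6N replicate 3 was the cornea whose removal gave the highest. The rlog difference of 0.19 (SE 0.0972) did not pass the threshold used for all genes, an adjusted p of 0.01 or less (limma with Benjamini-Hochberg adjustment, adjusted p = 0.287), which 5.74% of the 25402 genes tested passed. An exact two-sided permutation test over the corneas gave p = 0.143, and no p below 0.0286 can be reached with these numbers of corneas.

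The higher Ankrd34a reads came from particular corneas. BALB/c replicates 1 and 4, which were high in lens and pigment markers, held 25 and 31 of the reads, and without them the ratio of normalized reads was 1.44 and the rlog difference 0.05. Without the 3 stroma-poor corneas the rlog difference was 0.28 (limma, adjusted p = 0.159). The nerve markers were highest in BALB/c replicates 1 and 4 as well, with summed levels of 314 and 573 normalized reads. BALB/c replicates 2 and 3 had 27 and 49. The Schwann cell markers had a mean rlog of 7.69 and 8.37 against 6.77 and 7.01 within BALB/c. Their summed level did not separate these corneas, with 5284 normalized reads in replicate 1 and 5447 in replicate 2. Over both strains the Schwann cell sum was highest in C57BL/6N replicate 2 (13214, mean rlog 7.88), which had 2 reads of Ankrd34a. The part of lens, pigment or nerve tissue in the Ankrd34a reads was not tested.

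Ankrd34b was listed at 0 in all 8 corneas. A count of 0 allows up to 3 reads per cornea, which is 0.0729 to 0.101 reads per 1 M, or 0.0154 to 0.0213 RPKM for its 4748 bases of exon. It was among the 4584 of 21995 protein-coding genes with no read (20.8%). Its antisense gene C030017D09Rik had 2 reads in BALB/c replicate 1 and 0 in the other corneas. Whether the counting used strand is not given in the sources used here, but hardly any read lay on either gene.

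The members were also compared with each other, per length. In C57BL/6N, Ankrd34c had 147 times the mean RPKM of Ankrd34a (0.06 ± 0.0641, SD, n = 4), with Ankrd34b below detection. This ratio rests on the 7, 2, 11 and 0 reads of Ankrd34a and was 267 without C57BL/6N replicate 3, but Ankrd34c was the higher gene in 4 of 4 corneas. In BALB/c, Ankrd34c had 0.498 times the mean RPKM of Ankrd34a (0.186 ± 0.123, SD, n = 4), and these did not differ beyond their spread, with Ankrd34c the higher gene in 1 of 4 corneas. No cornea had a member other than Ankrd34c above 31 reads.

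Reads could be split between near-identical copies, so the transcripts of the members were aligned to each other and to all other annotated transcripts. The longest alignment between the transcripts of Ankrd34b and Ankrd34c covered 450 bases at 70.4% identity, that of Ankrd34a and Ankrd34b covered 102 bases at 70.6%, and Ankrd34a and Ankrd34c gave none. Of all other annotated transcripts, 0 matched a member with at least 95% identity over at least 100 bases, the length of a sequenced read. The longest match of Ankrd34c was a stretch of 86 bases at 86.0% identity to Cog7. Matches below this limit linked Ankrd34c to 2867 other genes, against 0 for Ankrd34a and 2 for Ankrd34b. Whether any of the few BALB/c reads came from such shared stretches was not tested. The authors aligned BALB/c reads to a genome carrying the known small variants of that strain. Whether larger differences of sequence at this gene kept reads from aligning was not tested, and reads along the gene were not analysed here.

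The genes next to Ankrd34c show whether the difference extended along the chromosome. The 5 nearest protein-coding genes on each side and the directly adjacent gene of any type made up 11 genes, of which 8 were tested. Of the 8, 0 were called with limma at an adjusted p of 0.01 or less, against 5.74% over all genes, and 0 with limma voom on the recovered reads. At an unadjusted p under 0.05 there were 4 of 8 (50.0%), against 23.7% of all genes tested. The rlog differences of the 8 lay between -0.30 and 0.30, with a median of 0.09 (0.01 over all genes tested). Of the 8, 6 were above 0 and 2 below.

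**Figure D2:**
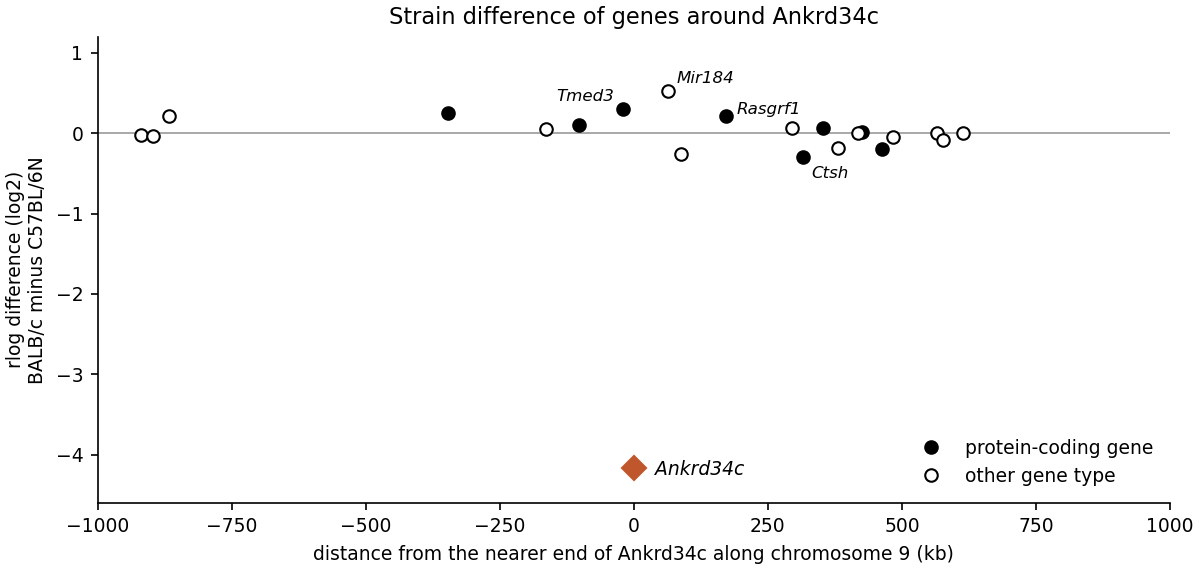
Rlog difference (log2, BALB/c minus C57BL/6N) of Ankrd34c and of the 21 other genes tested within 1 Mb on each side, against distance from the nearer end of Ankrd34c in kilobases. Filled circles are protein-coding and open circles other genes, and all of them lie between -0.30 and 0.52 while Ankrd34c (diamond) lies at -4.17.

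On the side of lower coordinates, which is downstream of Ankrd34c, the adjacent gene was Tmed3, a cargo receptor of the early secretory pathway, 20177 bases away on the same strand. Its rlog values were 11.20, 11.03, 11.19 and 11.12 in BALB/c and 10.98, 10.96, 10.61 and 10.79 in C57BL/6N. Every BALB/c cornea lay above every C57BL/6N cornea, the opposite order to that of Ankrd34c, which 18.3% of all genes tested did in one direction or the other. The difference of 0.30 (SE 0.0866) was not called (limma, adjusted p = 0.0583).

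Further on the same side were Minar1, a Notch2-associated receptor, and Mthfs, an enzyme of folate metabolism. The rlog difference of Minar1 was 0.10 (limma, adjusted p = 0.915), but -0.41 without the 3 stroma-poor corneas (limma, adjusted p = 0.0681). It had 49 and 45 reads in the stroma-poor C57BL/6N corneas against 354 and 351 in the others. Minar1 was thus low in the same corneas as the stromal markers, 75 reads in BALB/c replicate 2 included, and the part of stromal tissue in its values was not tested. The rlog difference of Mthfs was 0.25 (limma, adjusted p = 0.298). Gm29094 was at 0 in all corneas. Bcl2a1b, of the apoptosis inhibitors of the Bcl2 family, had 6 reads in all, and these are uncertain because its gene family holds near-identical copies and it overlaps Gm29094.

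On the side of higher coordinates the directly adjacent gene was the pseudogene Gm29608, 20528 bases from Ankrd34c, with 4 reads in C57BL/6N replicate 2 and 0 in the other corneas. The next protein-coding gene was Rasgrf1, an activator of Ras, which is 171433 bases away and had 42.2 ± 4.31 RPKM (SD, n = 4) in C57BL/6N. Its rlog values were 14.43, 14.39, 14.32 and 14.20 in BALB/c and 14.04, 14.02, 14.28 and 14.14 in C57BL/6N. The strains overlapped, with a difference of 0.21 (SE 0.0712; limma, adjusted p = 0.0936).

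Ctsh, which encodes the lysosomal protease cathepsin H, was the neighbour with the lowest adjusted p. Its rlog values were 11.95, 11.72, 11.92 and 11.83 in BALB/c and 12.24, 12.25, 11.99 and 12.14 in C57BL/6N. It lay in the same direction as Ankrd34c, and the strains did not overlap. The difference was -0.30 (SE 0.0746; limma, adjusted p = 0.0303), so it was not called. The log2 ratio of its normalized reads was -0.40, against -6.65 for Ankrd34c.

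The 3 remaining neighbours of that side overlapped between the strains. Morf4l1, a chromatin protein of histone acetyltransferase complexes, differed by 0.07 (limma, adjusted p = 0.512). Adamts7, a secreted metalloproteinase, differed by 0.02 (limma, adjusted p = 0.961), and by -0.23 without the 3 stroma-poor corneas (limma, adjusted p = 0.305). Tbc1d2b, a regulator of Rab GTPases, had a difference of -0.20 (limma, adjusted p = 0.127).

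**Figure D3:**
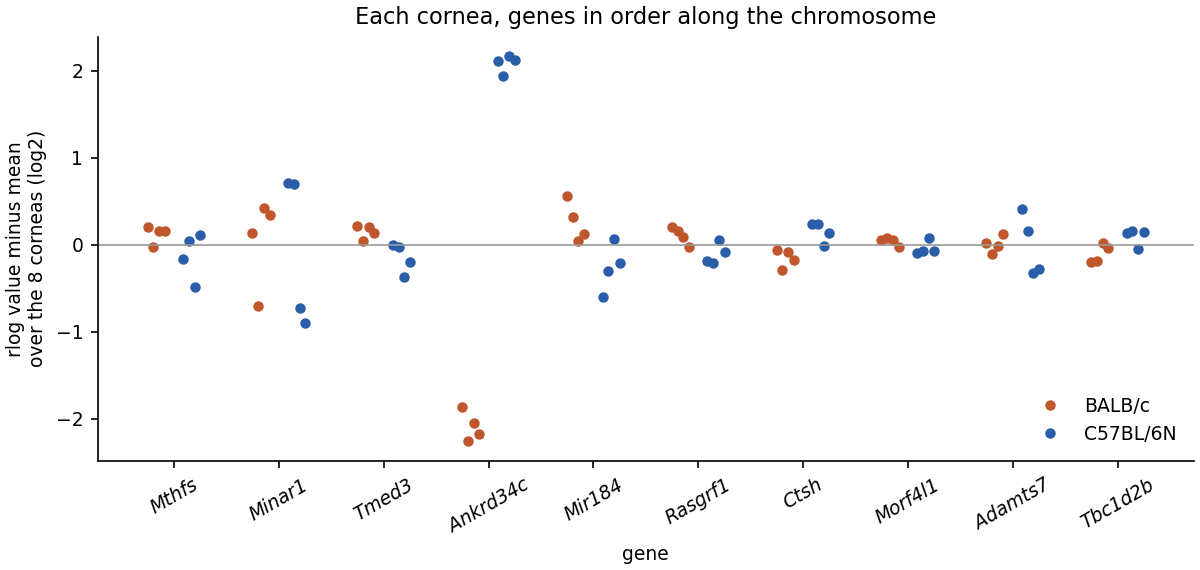
Rlog values of each cornea minus the mean of the 8 corneas (log2), with genes in the order of the chromosome. Shown are Ankrd34c, its tested neighbours and Mir184, which was named after its values were seen and differs by 0.52. The strain means of Ankrd34c differ by -4.17, whereas those of the other genes differ by between -0.30 and 0.52, and Minar1 varies more within the strains than between them.

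Within 1 Mb on each side there were 50 other genes, 21 of them tested. Of the 21, 0 were called with limma and 0 with limma voom on the recovered reads, and 6 (28.6%) had an unadjusted p under 0.05. Over all genes tested these shares were 5.74% and 23.7%, so neither count stands far from the background. The median difference was 0.00. The largest was 0.52 in Mir184, the gene of a microRNA abundant in the corneal epithelium, which is named here after its values were seen. It had 380, 286, 193 and 208 reads in BALB/c and 78, 119, 150 and 127 in C57BL/6N. The strains overlapped on the rlog scale (limma, adjusted p = 0.0667). The annotated hairpin spans 69 bases and is shorter than the sequenced reads, so these reads are not a measure of the mature microRNA. Among the tested genes within 1 Mb, a difference of the size of that in Ankrd34c was found in Ankrd34c alone. Only 10 of all 25402 genes tested, Ankrd34c included, had a difference that large, and Ankrd34c was chosen for it. The lack of another such gene therefore says little about this locus.

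The loci of the other members were looked at in the same way. Of the 3 nearest protein-coding genes on each side of Ankrd34a and of Ankrd34b, 12 in all, 10 were tested. With limma 0 of the 10 were called, with limma voom 0, and 2 had an unadjusted p under 0.05, near the 5.74% and 23.7% of all genes tested. The differences lay between -0.24 and 0.43, and the lowest adjusted p was 0.0214 (limma). The genes closest to Ankrd34a and Ankrd34b had more reads than these members themselves. Polr3gl encodes a subunit of RNA polymerase III and had 421 to 722 reads per cornea. It lies on the minus strand, with its start 2455 bases from the start of Ankrd34a. Lix1l, on the plus strand, begins 1374 bases after the end of Ankrd34a and had 69 to 527 reads. Near Ankrd34b, the closest protein-coding gene Fam151b had 65 to 125 reads.

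The wider set of genes named for the ankyrin repeat domain was called about as often as other genes. It holds 44 genes besides the 3 members, of which 39 were tested. Of the 39, 2 (5.13%) were called, both higher in BALB/c, against 5.74% of all genes in either direction and 2.83% in this direction. With limma 0 of the 39 were called lower, where 2.91% of all genes were. The median difference was 0.01, as over all genes tested, with 20 genes above 0 and 19 below. At an unadjusted p under 0.05 there were 14 (35.9%, against 23.7% of all genes tested). The strains did not overlap in 11 (28.2%, against 18.3% of all genes). Both shares were above those over all genes, and this excess was not tested. The lowest difference in the set was -0.35, in Ankrd50, an adaptor of endosomal recycling.

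**Figure D4:**
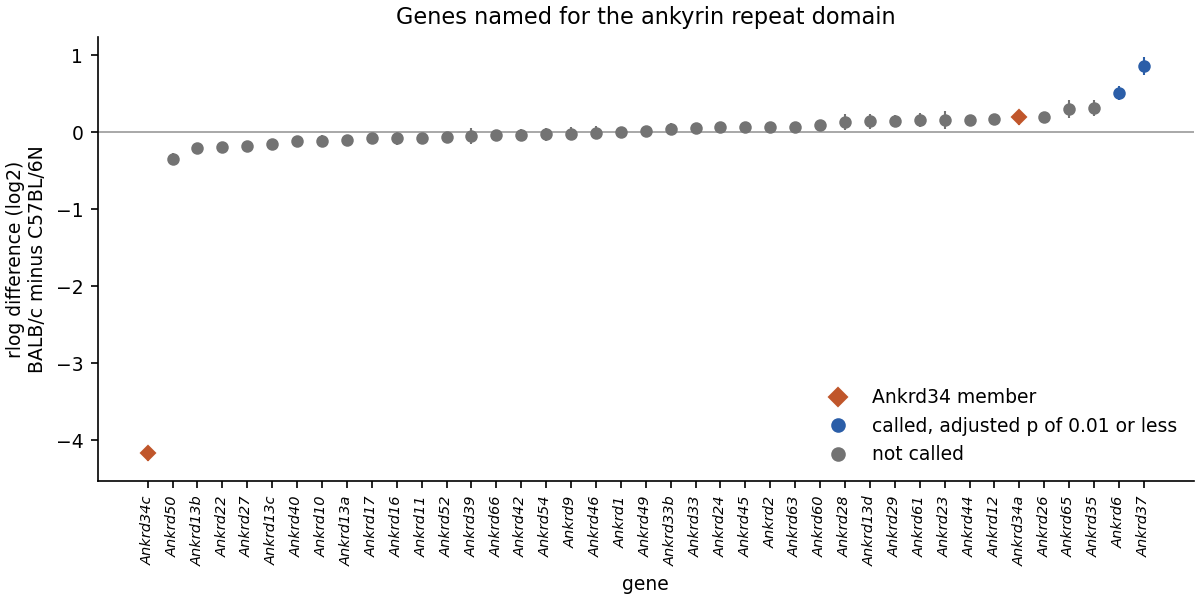
Rlog difference (log2, BALB/c minus C57BL/6N) of the 39 tested genes named for the ankyrin repeat domain and of Ankrd34a and Ankrd34c, in rising order, with bars of ± SE. Ankrd34c lies at -4.17, the next lowest gene at -0.35, and the called genes Ankrd6 and Ankrd37 are the highest.

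Ankrd37, a gene induced by hypoxia, had 77, 56, 109 and 53 reads in BALB/c and 6, 10, 0 and 4 in C57BL/6N. Every BALB/c cornea was well above every C57BL/6N cornea. The rlog difference was 0.86 (SE 0.115; limma, adjusted p = 0.00107). It was no longer called without BALB/c replicates 1 and 4 (limma, adjusted p = 0.0173) or without the 3 stroma-poor corneas (limma, adjusted p = 0.0202), with a difference of 0.93 and 0.85.

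Ankrd6, also known as diversin and a component of Wnt and planar polarity signalling, had 110, 81, 71 and 92 reads in BALB/c and 23, 35, 28 and 28 in C57BL/6N. Again the strains did not overlap. The rlog difference was 0.51 (SE 0.0881; limma, adjusted p = 0.00514). This call was lost with any 1 of the 8 corneas left out (limma, adjusted p between 0.0106 and 0.0202), while the difference stayed between 0.47 and 0.54. It was also lost without BALB/c replicates 1 and 4 (0.41; limma, adjusted p = 0.0732) and without the 3 stroma-poor corneas (0.56; limma, adjusted p = 0.0376).

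The genes whose values were most like those of Ankrd34c over the 8 corneas were Pbp2, Rpl29, Trim12a, Nlrp1c-ps and Pglyrp4, with Pearson's r between 0.997 and 0.999. All 5 were lower in BALB/c, with rlog differences between -5.03 and -1.92, and 46 genes had r of at least 0.99. This likeness rests on the difference between the strains, for which Ankrd34c was chosen. Rpl29, a ribosomal protein gene, and Trim12a belong to families with near-identical copies, so their reads are uncertain. None of the 5 is a neighbour of Ankrd34c, although Rpl29 is also on chromosome 9.

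After the mean of each strain was subtracted, no gene reached r of 0.99 with Ankrd34c. The 5 highest were Gm42780, Gm44550, Spdya, Gm12037 and Gm5470, with r between 0.953 and 0.972 over 8 corneas and strain differences between -0.22 and 0.18. Of these only Spdya, a regulator of the cell cycle, is protein-coding. The correlation of Ankrd34c after this subtraction was -0.25 with the epithelial keratin Krt12 and -0.03 with the stromal proteoglycan Kera. For Ankrd34a the most alike genes were Kcna2 (0.971), a potassium channel, Rgs9 (0.968), a regulator of G protein signalling, and Gm43412 (0.967), and after subtraction Gm13161 (0.975), Dzip1 (0.973) and Gm43412 (0.970). For Ankrd34b, at 0 throughout, none could be given. These correlations describe corneas that share library depth and tissue content, and carry no test.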

How the data were processed

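RNA of 4 BALB/c and 4 C57BL/6N corneas was analysed from the rlog table the authors deposited, which holds log2 values normalized for library size and no raw counts. The authors trimmed reads, aligned them with TopHat2 2.1.1 to genomes carrying the small variants of each strain (GRCm38), and counted them on Ensembl genes with HTSeq 0.7.1. The submitters' processing notes also name DESeq2 1.30, and the settings of the rlog transformation are not given in the sources used here.

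The strain comparison used limma 3.58.1 under R 4.3.3 (lmFit and eBayes with a variance trend) over the 25402 genes with reads and a mean rlog of at least 0, with Benjamini-Hochberg adjustment and a call at 0.01 or less. Single genes were also tested by exact permutation (scipy 1.17.1). Reads were recovered by inverting the transformation, with constants fitted so that reads come out whole. PCR copies are not independent molecules, so floors cover counting error only. The procedures were tested on simulated data. Positions came from a GENCODE annotation of GRCm38 (31302 of 31314 genes with reads matched), promoters from RefSeq, and transcripts were aligned with BLAST 2.17.0.

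Neighbours were taken by position, and the genes most alike by Pearson's r. Members and lists were chosen with earlier results of these data known. The marker lists for 11 cell types were used as checks, with those that differed given beside the results. Alternatives were no trend, no filter, a mean of at least log2(10), median centring, quantile normalization, an empirical null, the replicate block and leaving out each cornea. Chosen after seeing the data were 2 fits without the corneas that stood apart and limma voom on recovered reads.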

Additional observations from a re-analysis of the deposited data

Results flagged for a closer look

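In 2 of 26 groups of 4 corneas (each gene named in the comparisons, in each strain), 1 cornea lay farther from the nearest other than the 95% limit of Dixon's test allows, where chance gives 1.3. For Mthfs in BALB/c, replicate 2 had an rlog value of 6.28 and the next cornea 6.47, a gap of 0.8294 of the range. For Tbc1d2b in C57BL/6N, replicate 3 had 11.14 and the next cornea 11.32, a gap of 0.8462 of the range. Both corneas are among the 3 with low stromal markers, and the part of stromal tissue in these values was not tested. No member of the Ankrd34 family was past the limit.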

How the results depend on the processing

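The rlog difference of Ankrd34c, for which the family was chosen, was between -4.24 and -4.11 with each cornea left out. It was -6.68 on the unshrunk scale of limma voom. The variance trend, the filters, the empirical null and the replicate block cannot change a difference of means, so it stayed at -4.17 there. Ankrd34a was called in no alternative (adjusted p 0.126 to 0.982 with limma). Its rlog difference was 0.05 to 0.28, and its difference on the unshrunk scale of limma voom was 2.06. In all alternatives 0 neighbours of any member and 0 genes within 1 Mb of Ankrd34c were called. Limma called 1458 genes (718 higher and 740 lower in BALB/c), and 0 with the empirical null, where 1730 had an unadjusted p under 0.05. Median centring called 958 (413 higher), 1 of them an ankyrin repeat gene, and quantile normalization 1443, also with 1 ankyrin repeat gene. Without BALB/c replicates 1 and 4, limma called 447 (219 higher, 228 lower, 0 ankyrin repeat genes), and without the 3 stroma-poor corneas 852 (411 higher, 441 lower, 1 ankyrin repeat gene). With 1 cornea left out, 953 to 1163 were called (485 to 561 higher, 468 to 608 lower, 1 to 2 ankyrin repeat genes). These fits hold fewer samples. The 953 came without C57BL/6N replicate 4, and lower calls were 468 to 487 without it or without BALB/c replicate 1, 3 or 4. The cause of these shifts was not tested.

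For corneas with the same replicate number, deviations from the strain means correlated at 0.31, -0.53, -0.20 and -0.45. No pairing by number was seen, but these correlations carry no test and cannot show that the corneas were unpaired. With the replicate block 554 genes were called (274 higher, 280 lower), of the ankyrin repeat genes 0, and the difference of Ankrd34c was -4.17 by construction. Ankrd34a (limma, adjusted p = 0.379) and the neighbours were not called. Ankrd6 and Ankrd37 were called neither with the block (limma, adjusted p = 0.054 and 0.0181) nor with the empirical null. Values of Ankrd34a rest on 0 to 31 reads per cornea, and Ankrd34b had none.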
